A study of Mus musculus with 8 samples.

Results

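The noncoding host genes of small nucleolar RNAs were followed in mouse liver cells: Gas5 and 7 members of the Snhg family (Snhg1, Snhg3, Snhg5, Snhg6, Snhg8, Snhg11 and Snhg12). They were chosen by gene symbol, and all 8 of 8 are among the 25229 symbols counted in every library. The samples are hepatocyte-enriched cells of 8 C57BL/6 mice, all Ifih1-/- (without MDA5, a sensor of double-stranded RNA) and all Alb-Cre+, a recombinase driven by the albumin promoter in hepatocytes. They differ in Adar1, the gene (symbol Adar) of an enzyme that edits adenosine to inosine in double-stranded RNA: 3 mice were Adar1 flox/flox, 2 were wt/flox and 3 were wt/wt. In every genotype replicate 1 was labelled 11 weeks old, replicate 2 was 9 weeks old, and the flox/flox and wt/wt replicate 3 were 7 weeks old. The controls therefore lack Ifih1 and carry Cre as well, and no mouse with intact Ifih1 was analysed here. The question was how loss of Adar1 in hepatocytes alters the transcriptome when MDA5 is absent.

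Small nucleolar RNAs, or snoRNAs, guide the 2′-O-methylation (box C/D class) or pseudouridylation (box H/ACA class) of ribosomal and spliceosomal RNA. In mammals most of them are cut from introns that have been spliced out of a host transcript. For the Snhg genes and Gas5 the spliced host RNA itself codes for little or no protein. Many host genes begin with a terminal oligopyrimidine tract, a C followed by a run of C and T, which they share with ribosomal protein genes. For Gas5 and several relatives, translation of the short reading frames in the spliced RNA is known to expose it to nonsense-mediated decay, so its level depends on decay as well as on transcription.

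The start regions of the members with such a tract are shown because the tract is what links this family to the ribosomal protein genes described further on. They come from the RefSeq table on build GRCm38.p6 and run from 30 bases before to 30 bases from the annotated start, with the start as the thirty-first base. Capitals mark the tract, a C followed by at least 4 bases that are each C or T, read on the gene's strand and beginning within 10 bases of the start, and the letters TATA, which read the same on both strands, 45 to 15 bases before it.
Gas5, chr1:161035136-161035195, plus strand: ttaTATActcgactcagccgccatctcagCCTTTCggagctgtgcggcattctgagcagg
Snhg3, chr4:132353657-132353716, minus strand: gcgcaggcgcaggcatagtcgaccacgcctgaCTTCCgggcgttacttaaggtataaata
Snhg5, chr9:88522868-88522927, minus strand: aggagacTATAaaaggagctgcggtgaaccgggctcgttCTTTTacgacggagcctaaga
Snhg8, chr3:123508307-123508366, minus strand: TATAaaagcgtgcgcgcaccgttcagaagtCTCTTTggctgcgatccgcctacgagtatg
Snhg12, chr4:132308648-132308707, plus strand: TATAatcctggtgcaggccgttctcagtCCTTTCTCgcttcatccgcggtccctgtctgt
Of the 7 members with a window in the table, 5 held a tract, against 29% of all 32851 windows. TATA was found in 5 of 7 members, against 6.87% of all windows. Gas5 has a second annotated start with neither motif, Snhg1 held TATA without a tract under this spelling, Snhg11 held neither, and Snhg6 has no window in the table. Such matches describe letters and not factor binding.

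In GENCODE M21 (GRCm38), 29 annotated snoRNA genes lie inside the members on the same strand, 9 of them in Gas5, 8 in Snhg1 and 4 in Snhg12. Of these, 8 have a row in the count tables. Snora24 of Snhg8, and Snora16a and Snord99 of Snhg12, are printed here from the GRCm38 genome. The later comparison of host and passenger rests on Snora16a and Snord99, since Snora24 had 0 reads in every library. Capitals mark the ACA box of the H/ACA class near the 3′ end, and the C box (TGATGA) and D box (CTGA) of the C/D class.
Snora24, chr3:123507937-123508066, minus strand: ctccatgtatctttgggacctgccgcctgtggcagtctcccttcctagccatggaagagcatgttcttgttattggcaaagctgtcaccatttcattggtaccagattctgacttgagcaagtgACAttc
Snora16a, chr4:132309464-132309600, plus strand: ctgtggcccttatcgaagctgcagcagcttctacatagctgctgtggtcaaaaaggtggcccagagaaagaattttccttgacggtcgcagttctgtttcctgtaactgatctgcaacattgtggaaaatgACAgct
Snord99, chr4:132310691-132310764, plus strand: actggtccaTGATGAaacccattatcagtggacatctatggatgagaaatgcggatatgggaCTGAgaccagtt
Snora24 lies in an intron of Snhg8 and Snora16a in an intron of Snhg12. Snord99 overlaps an exon of another annotated Snhg12 transcript, so its reads and those of its host are not cleanly separable.

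Sense reads in genes numbered 75875711 to 132303735 per library. Adar itself checked the genotype labels little. It had CPM values (read counts scaled to library size) of 49.4, 35.9 and 42.1 in the flox/flox libraries, 22.0 and 31.8 CPM in the wt/flox libraries, and 28.1, 30.0 and 53.6 CPM in the wt/wt libraries, with an edgeR adjusted p of 0.626 for flox/flox against wt/wt. These counts cover the whole gene, including exons outside any floxed part. The labels give flox/flox replicates 1 and 3 and wt/wt replicate 3 as female and the other libraries as male. Xist and Y-linked transcripts contradicted the labelled sex in the libraries labelled flox/flox replicate 1 and replicate 2. An exchange of these 2 libraries would match both sex labels and would also exchange their labelled ages, but it was not tested. By their table names, the 5 flox/flox and wt/flox libraries bear a second batch mark that the 3 wt/wt libraries lack. Genotype and that mark cannot be told apart in either comparison with wt/wt, and flox/flox against wt/flox is the comparison within 1 mark. Sex is not balanced in that comparison. By transcripts both wt/flox libraries are male, while flox/flox replicate 1 is male and replicates 2 and 3 are female. Reads in no gene made up 34.5% to 40% of sense reads in flox/flox, 31.7% to 37.3% in wt/flox and 22.2% to 28.1% in wt/wt. All 10 hepatocyte markers were detected in every library, with Alb at 63587 CPM or more.

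Per length of exon, Gas5 was the most abundant member. It averaged 24.2 CPM per kilobase (kb) of exon over the 8 libraries, with a range of 16.9 to 35.8. Snhg8 (8.67) and Snhg3 (8.51) followed, then Snhg1 (4.84), Snhg6 (3.65), Snhg5 (2.17), Snhg12 (1.45) and Snhg11 (0.964 CPM per kb). The range of Gas5 overlapped only that of Snhg3 (2.70 to 23.9), and from Snhg3 on each gene overlapped the one before it. Gas5 also supplied 37.5% to 50.8% of the summed CPM of the 8 members in each library.

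The members differed in how much they varied from mouse to mouse. The highest library exceeded the lowest 10.3-fold for Snhg11 and 8.83-fold for Snhg3, against 2.07-fold to 3.00-fold for the other 6. Counting error was small beside this: the member with the fewest reads in a library, Snhg12 with 82, had a counting SD of 11.0% there, and Gas5 had at least 1412 reads in each library. Reads on the opposite strand averaged between 1.08% (Snhg1 in wt/flox) and 10.1% (Snhg6 in flox/flox) of the reads on either strand.

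**Figure D1:**
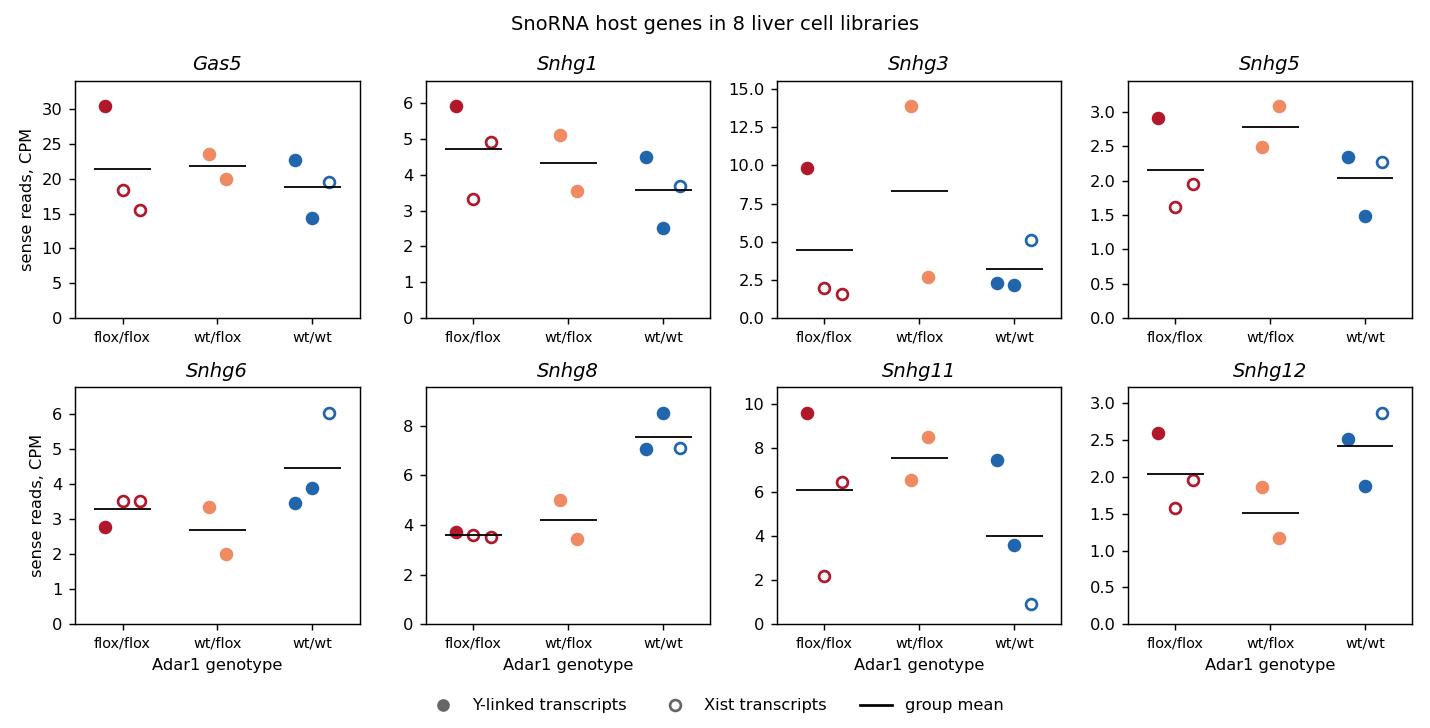
Level of each of the 8 host genes (sense reads in CPM, axis from 0, a separate scale per panel) in the 3 flox/flox, 2 wt/flox and 3 wt/wt libraries. Each point is 1 mouse, filled where Y-linked and open where Xist transcripts were found, and the line is the group mean. Snhg8 is the panel where the 3 flox/flox libraries (3.51 to 3.72 CPM) all lie below the 3 wt/wt libraries (7.04 to 8.51 CPM).

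Snhg8 was the 1 member called in flox/flox against wt/wt, and it was lower. A lack of a call does not show that a member stayed level. The 95% intervals of Snhg3 (-1.44 to 2.40), Snhg11 (-1.06 to 2.27), Snhg6 (-1.08 to 0.20) and Snhg1 (-0.27 to 1.08) include changes as large in size as that of Snhg8. Snhg8 is a compact host gene on chromosome 3 (chr3:123507552-123508404, minus strand) that carries the H/ACA snoRNA Snora24 printed above. It had 3.72, 3.59 and 3.51 CPM in flox/flox, against 7.04, 8.51 and 7.10 CPM in wt/wt. The groups do not overlap, and the flox/flox libraries lie closer together than the wt/wt libraries. The means were 3.61 ± 0.108 CPM in flox/flox and 7.55 ± 0.833 CPM in wt/wt (SD, n = 3 each). The fitted log2 fold change was -1.07 (SE 0.17, 95% interval -1.46 to -0.67), a 2.09-fold lower level, with an edgeR adjusted p of 0.00445. Against this 1 of 8 members, 29.9% of all 14728 genes tested were called in this comparison, 15.1% higher and 14.7% lower. In 22.0% of all genes every flox/flox library lay below every wt/wt library, and among the members this held for Snhg8 alone. In bulk libraries fewer cells of a type and less RNA per cell cannot be told apart.

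The wt/flox libraries had 5.00 and 3.44 CPM of Snhg8. The first lies between the other groups and the second just below the flox/flox libraries. Snhg8 was lower in wt/flox than in wt/wt by -0.84 on the log2 scale (SE 0.20, 1.79-fold lower, edgeR adjusted p = 0.0334). That call is fragile: it was lost under 13 of 23 alternatives, including without wt/flox replicate 1 (log2 -1.13, edgeR adjusted p = 0.0764) and without wt/flox replicate 2 (log2 -0.59, edgeR adjusted p = 0.203). Within the shared batch mark, flox/flox against wt/flox gave a log2 fold change for Snhg8 of -0.23 (SE 0.19, interval -0.67 to 0.21, edgeR adjusted p = 0.663), which was not called. Set against Gas5 in the same library, Snhg8 had 12.2, 19.5 and 22.7 reads per 100 Gas5 reads in flox/flox, 21.1 and 17.1 in wt/flox, and 31.1, 59.1 and 36.4 in wt/wt. The wt/wt ratios lie above those of all 5 other libraries.

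Fold changes in flox/flox against wt/wt also differed by exon length, and some cell type markers differed between these groups. Genes with 500 to 1000 exon bases, the range of Snhg8 (604 bases), had a median log2 fold change of -0.64 in flox/flox against wt/wt, and 42.2% of those 661 genes were called lower. The median over all genes was 0.02, and 15.1% of them were called higher and 14.7% lower. Of the genes in that length range, 25.4% had a lower fold change than Snhg8. With the length trend removed from each library, the log2 fold change of Snhg8 was -0.43 and it was no longer called (edgeR adjusted p = 0.0703). The same step moved Gas5 upward to 0.75 (edgeR adjusted p = 0.0999) and Snhg1 to 0.96 (edgeR adjusted p = 0.0574). It moved Snhg3 to 1.11 (edgeR adjusted p = 0.365) and Snhg5 to 0.56 (edgeR adjusted p = 0.226), and none of them was called. Snhg6 (979 exon bases) and Snhg12 (1418 exon bases) reached at most 0.05 and 0.09 under any of the 23 alternatives. Of 11 sinusoidal endothelial markers, 7 fell and none rose, with summed levels of 70.3 to 148 CPM in flox/flox, 80.3 to 90.9 CPM in wt/flox and 163 to 256 CPM in wt/wt, and no marker at 0 in any library. Of 10 Kupffer cell markers none was called, with sums of 32.8 to 117 CPM in flox/flox, 32.0 to 33.5 CPM in wt/flox and 57.8 to 249.8 CPM in wt/wt, again with no marker at 0. Of 10 hepatocyte markers 4 rose and none fell, with sums of 165917 to 245032 CPM in flox/flox, 153405 to 174431 CPM in wt/flox and 102778 to 121318 CPM in wt/wt, so that wt/wt lies below both other groups. The part of these cell types in the Snhg8 result was not tested.

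Gas5, which in human and mouse cells is known to accumulate on growth arrest and whose RNA can bind the glucocorticoid receptor, was not called in any comparison. It had 30.4, 18.4 and 15.5 CPM in flox/flox, 23.6 and 20.1 CPM in wt/flox, and 22.7, 14.4 and 19.5 CPM in wt/wt. The flox/flox libraries hold the second lowest as well as the highest value, and all groups overlap. The log2 fold change was 0.19 in flox/flox against wt/wt (SE 0.27, interval -0.44 to 0.81, edgeR adjusted p = 0.628) and -0.03 against wt/flox (interval -0.72 to 0.67). A change of Gas5 of up to about the upper bound of 0.81 therefore lies within the error of 3 against 3 mice.

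Snhg1, host of a large set of box C/D snoRNAs, had 5.92, 3.32 and 4.92 CPM in flox/flox, 5.11 and 3.54 CPM in wt/flox, and 4.51, 2.51 and 3.69 CPM in wt/wt. The groups overlap, and its log2 fold change of 0.40 in flox/flox against wt/wt was not called (SE 0.29, edgeR adjusted p = 0.328). Snhg5, host of the C/D snoRNAs Snord50a and Snord50b, had 2.91, 1.61 and 1.96 CPM in flox/flox, 2.49 and 3.08 CPM in wt/flox, and 2.34, 1.49 and 2.27 CPM in wt/wt. Its log2 fold change in flox/flox against wt/wt was 0.08 (SE 0.29, edgeR adjusted p = 0.846).

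Snhg3, host of the H/ACA snoRNAs Snora73a and Snora73b, was uneven within every genotype. It had 9.84, 1.97 and 1.57 CPM in flox/flox, 13.9 and 2.71 CPM in wt/flox, and 2.31, 2.16 and 5.09 CPM in wt/wt. One library in each group stood above the others of its genotype, and the highest value was in a wt/flox mouse. The interval of its log2 fold change in flox/flox against wt/wt runs from -1.44 to 2.40 around 0.48, so these libraries do not resolve even a large change (edgeR adjusted p = 0.686). Snhg3 shares 5592 bases on the same strand with Rcc1, which encodes the nucleotide exchange factor of the GTPase Ran, so its counts are uncertain. Rcc1 was more even, with 4.81, 3.39 and 2.69 CPM in flox/flox, 4.20 and 3.86 CPM in wt/flox, and 4.85, 5.06 and 4.92 CPM in wt/wt. Snhg3 reads per 100 Rcc1 reads were 205, 58.3 and 58.3 in flox/flox, 330 and 70.2 in wt/flox, and 47.7, 42.8 and 104 in wt/wt, so the libraries that are high in Snhg3 are high against its neighbour too.

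Snhg11, annotated in GENCODE M21 as protein-coding and known as a transcript abundant in neurons, was the other uneven member. It had 9.58, 2.20 and 6.46 CPM in flox/flox, 6.54 and 8.51 CPM in wt/flox, and 7.44, 3.59 and 0.931 CPM in wt/wt. The groups overlap and the log2 fold change of 0.61 in flox/flox against wt/wt was not called (SE 0.72, edgeR adjusted p = 0.549). It depended on single libraries, at 0.12 without flox/flox replicate 1, 1.01 without flox/flox replicate 2, 1.42 without wt/wt replicate 1 and 0.14 without wt/wt replicate 3. Neuronal cells were not in evidence beside it: of 6 neuron markers, Snap25 and Stmn2 had 0 reads in all 8 libraries, Rbfox3, Tubb3 and Gad1 had at most 8, and Syt1 alone was well above that, at 8.46 to 24.8 CPM. The summed level of the 6 was 18.9 to 24.9 CPM in flox/flox, 14.7 to 16.0 CPM in wt/flox and 8.53 to 11.0 CPM in wt/wt.

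Snhg6, host of Snord87, had 2.79, 3.53 and 3.54 CPM in flox/flox, 3.35 and 2.02 CPM in wt/flox, and 3.47, 3.88 and 6.04 CPM in wt/wt. Both wt/flox libraries lie below all wt/wt libraries, but the log2 fold change of -0.73 was not called (SE 0.32, edgeR adjusted p = 0.158). It was called when library size alone was used for scaling (log2 -1.09, edgeR adjusted p = 0.0428), a scaling that moves the median of all genes in that comparison to -0.42. For flox/flox against wt/wt the log2 fold change was -0.44 (SE 0.28, edgeR adjusted p = 0.260).

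Snhg12 had 2.59, 1.58 and 1.95 CPM in flox/flox, 1.86 and 1.16 CPM in wt/flox, and 2.52, 1.88 and 2.87 CPM in wt/wt. Its log2 fold change was -0.25 in flox/flox against wt/wt (SE 0.29, edgeR adjusted p = 0.547) and -0.68 in wt/flox against wt/wt (SE 0.33, edgeR adjusted p = 0.203). The flox/flox and wt/wt libraries overlap, while both wt/flox libraries lie below all wt/wt libraries.

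In flox/flox against wt/flox, which share a batch mark, no member was called and 0.00% of all genes were called with edgeR at an adjusted p of 0.05. At an unadjusted p under 0.05 edgeR counted 1240 genes, or 8.42%. DESeq2 called 73 genes and limma-voom 0, and neither called a member. The members' log2 fold changes ran from -0.90 (Snhg3) to 0.43 (Snhg12), with a median of -0.13 beside 0.04 over all genes. No member's flox/flox and wt/flox libraries were separate, whereas 27.3% of all genes were. The intervals still span from -0.67 to 0.21 for Snhg8, the narrowest, and from -3.00 to 1.20 for Snhg3, the widest.

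In wt/flox against wt/wt, edgeR called 12.5% of all genes, 6.58% higher and 5.89% lower, and Snhg8 was the 1 member among them. Snhg6, Snhg8 and Snhg12 were lower in both wt/flox libraries than in all wt/wt libraries, as were 29.3% of all genes, and Snhg5 was higher, as were 25.8%. With 3 of 8 members lower and 1 higher, the members stood near that background. The 3 comparisons share libraries, so their values are not independent of one another. The members' median log2 fold change was 0.13 in flox/flox against wt/wt and 0.25 in wt/flox against wt/wt, beside 0.02 and -0.06 over all genes. With library size alone, 5 rather than 3 members were below 0 in each of these comparisons, and the median of all genes in flox/flox against wt/wt moved to -0.31.

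**Figure D2:**
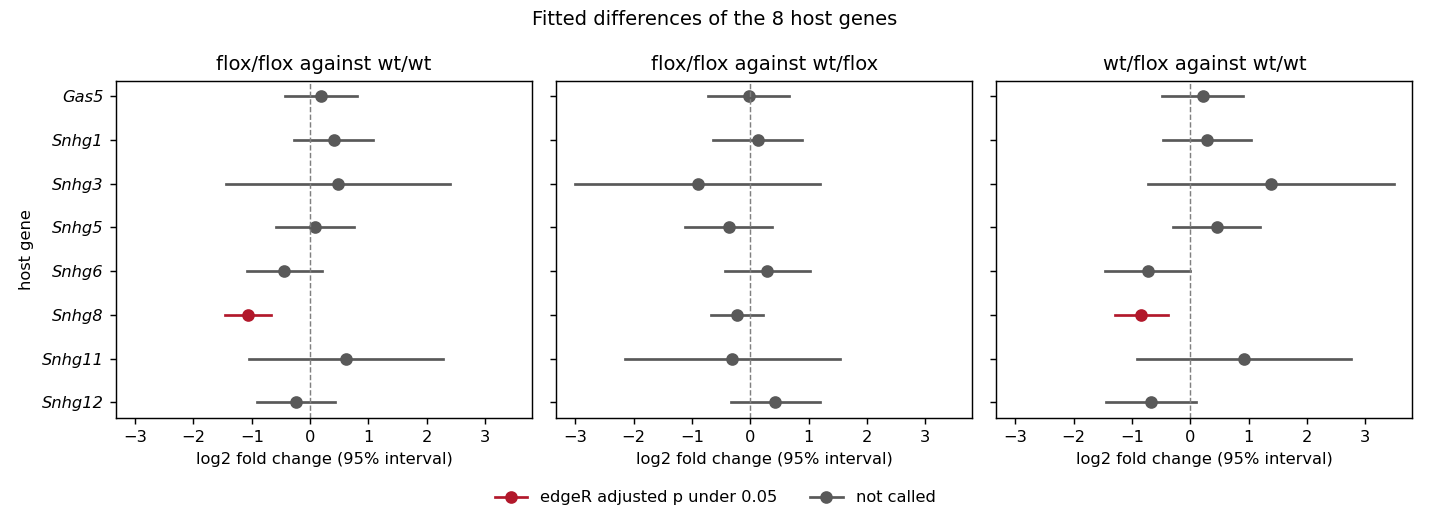
Fitted log2 fold change of each host gene (point) with its 95% interval (line) in flox/flox against wt/wt, flox/flox against wt/flox and wt/flox against wt/wt. Red marks an edgeR adjusted p under 0.05. Snhg8 is called in both comparisons with wt/wt (-1.07 and -0.84) and not within the shared batch mark (-0.23), and Snhg3 and Snhg11 have the widest intervals.

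The members' average level differed from mouse to mouse within each genotype. On log2 CPM centred on each gene's mean, the 8 members averaged 0.47, -0.44 and -0.18 in flox/flox, 0.39 and -0.16 in wt/flox, and 0.17, -0.24 and -0.01 in wt/wt, each in the order of replicates 1 to 3. In each genotype the library labelled replicate 1 had the highest average. With flox/flox replicates 1 and 2 exchanged, as their sex transcripts would allow, this would not hold for flox/flox by number or by labelled age. Gas5, Snhg1, Snhg5 and Snhg11 were above their own mean in replicate 1 of all 3 genotypes. Snhg3 was below its mean in wt/wt replicate 1 (-0.64), Snhg6 in flox/flox and wt/flox replicate 1 (-0.30 and -0.04), Snhg8 in flox/flox replicate 1 (-0.40) and Snhg12 in wt/flox replicate 1 (-0.09).

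The gene most like this average was Mphosph8, a chromatin silencing factor of the HUSH complex, with a Pearson r of 0.977 over the 8 libraries among 8801 genes compared. It was followed by Gpt2 (mitochondrial alanine aminotransferase), Ptpmt1 (a mitochondrial phosphatase of cardiolipin synthesis), Pim3 (a kinase), Sds (serine dehydratase, a hepatocyte enzyme of amino acid breakdown) and Etnk2 (ethanolamine kinase), down to r = 0.939. Most like Gas5 alone were Nop56 (r = 0.950), a core protein of box C/D particles and itself a snoRNA host, Ddx28 (r = 0.941), a helicase of mitochondrial ribosome assembly, and Dync1li1 (r = 0.933), a dynein chain. With 8 points and 8801 genes searched, these are descriptions, and the libraries share genotype and batch mark. Mphosph8 averaged 9.80 ± 4.18 CPM in flox/flox, 10.4 ± 2.84 CPM in wt/flox and 9.26 ± 1.14 CPM in wt/wt (SD, n = 3, 2 and 3).

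The snoRNAs inside the members were sparse in these tables. Snora24 in Snhg8 and Snord87 in Snhg6 had 0 reads in all 8 libraries, which allows up to 3 reads in each and covers counting error only. Snord47 in Gas5, Snord22 in Snhg1 and Snora44 and Snora61 in Snhg12 had at most 8 reads in a library and were not tested. Snora16a and Snord99 in Snhg12 were the 2 with more.

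Snora16a had 0.600, 0.313 and 0.417 CPM in flox/flox, 0.374 and 0.270 CPM in wt/flox, and 0.264, 0.228 and 0.256 CPM in wt/wt. Snord99 had 0.266, 0.206 and 0.137 CPM in flox/flox, 0.234 and 0.170 CPM in wt/flox, and 0.101, 0.127 and 0.119 CPM in wt/wt. For both, every library of the flox/flox and wt/flox mice lies above every wt/wt library, the opposite order to their host's wt/flox values. Reads were few, at 19 to 55 per library for Snora16a and 10 to 24 for Snord99. The closest values rest on 19 against 26 reads (0.270 and 0.264 CPM) and on 18 against 15 (0.137 and 0.127 CPM), gaps that are small beside counting error. Of all genes, 25.8% had wt/flox libraries wholly above wt/wt. In flox/flox against wt/wt neither passed the test, with log2 fold changes of 0.82 for Snora16a (SE 0.37, edgeR adjusted p = 0.126) and 0.79 for Snord99 (SE 0.42, edgeR adjusted p = 0.185), and 23.0% of all genes had flox/flox libraries wholly above wt/wt. Per 100 Snhg12 reads, Snora16a had 23.2, 19.8 and 21.4 reads in flox/flox, 20.1 and 23.2 in wt/flox, and 10.5, 12.2 and 8.92 in wt/wt. Snord99 had 10.3, 13.0 and 7.00 in flox/flox, 12.6 and 14.6 in wt/flox, and 4.03, 6.76 and 4.14 in wt/wt, so its groups barely separate. Genes with under 500 exon bases had a median log2 fold change of 0.89 in this comparison, and its part in these ratios was not tested.

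**Figure D3:**
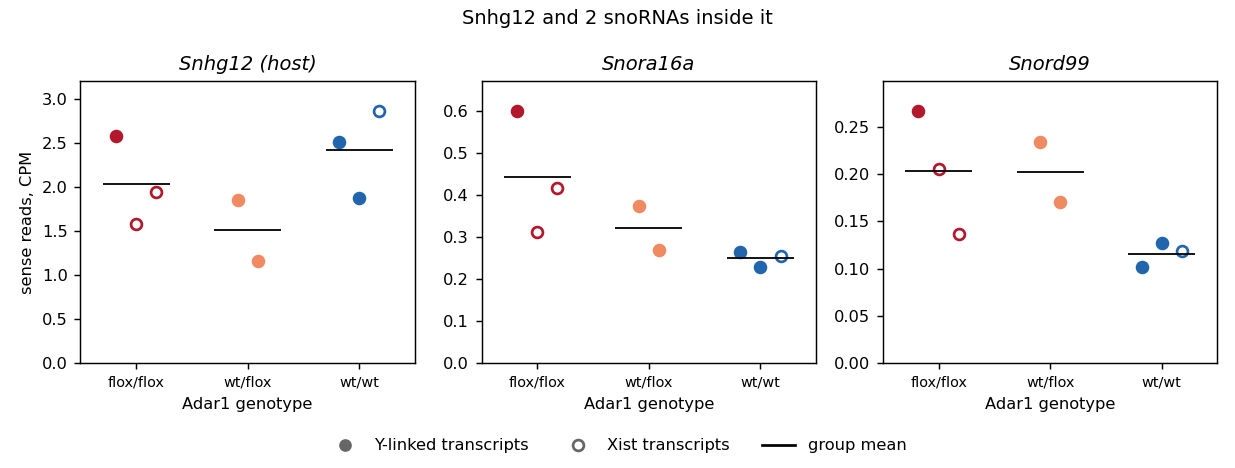
Sense reads in CPM (axes from 0) of the host gene Snhg12 and of Snora16a and Snord99, which lie inside it, in the flox/flox, wt/flox and wt/wt libraries. Points are mice, filled with Y-linked and open with Xist transcripts, and lines are group means. The 2 snoRNAs have their lowest values in wt/wt (0.228 to 0.264 and 0.101 to 0.127 CPM), while Snhg12 does not.

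Among genes next to the members, Zbtb37, a zinc finger gene whose start region overlaps Gas5 by 428 bases on the opposite strand, had 6.25, 6.19 and 9.80 CPM in flox/flox, 6.02 and 5.88 CPM in wt/flox, and 4.73, 4.79 and 4.53 CPM in wt/wt. It rose in flox/flox against wt/wt (log2 0.66, SE 0.19, edgeR adjusted p = 0.0356), but the call was lost under many alternatives. Among them were removal of the length trend (log2 0.03, edgeR adjusted p = 0.912) and omission of any 1 of the wt/wt libraries. Others were library size alone (edgeR adjusted p = 0.281), labelled sex (edgeR adjusted p = 0.0812) and sex by transcripts (edgeR adjusted p = 0.0688). Slc3a2, the heavy chain of amino acid transporters at the plasma membrane, starts 106 bases from Snhg1 in the other direction. It had 35.7, 51.4 and 40.0 CPM in flox/flox, 33.4 and 34.0 CPM in wt/flox, and 19.7, 25.1 and 39.8 CPM in wt/wt, and was not called (log2 0.59, SE 0.26, edgeR adjusted p = 0.121). Rcc1 was not called either (log2 -0.45, edgeR adjusted p = 0.152), nor was Mcmdc2, which overlaps Snhg6 by 127 bases on the opposite strand and averaged 0.126 CPM in flox/flox and 0.0773 CPM in wt/wt (edgeR adjusted p = 0.528).

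Other snoRNA host genes were counted as 2 lists, noncoding and protein-coding. Beside these counts and those of the later lists, 15.1% of all genes were higher and 14.7% lower in flox/flox against wt/wt. In the ranges of 500 to 1000 and 1000 to 2000 exon bases, 42.2% and 29.6% of genes were lower. Of 12 noncoding hosts tested besides the members, 3 rose and none fell in flox/flox against wt/wt, with a median log2 fold change of 0.18. Snhg17 had 10.4, 10.7 and 10.6 CPM in flox/flox, 5.64 and 7.41 CPM in wt/flox, and 5.50, 4.02 and 5.34 CPM in wt/wt, and rose 2.13-fold over wt/wt (edgeR adjusted p = 0.00364). Snhg16 rose 1.97-fold (edgeR adjusted p = 0.0213) and Snhg14 2.04-fold (edgeR adjusted p = 0.0287). Most reads at Snhg14 lay on the opposite strand, on average 83.0% in flox/flox, 87.4% in wt/flox and 87.0% in wt/wt. Its sense count is therefore the minor strand there. With antisense reads added the log2 fold change of both strands together was 0.61 (edgeR adjusted p = 0.00579), beside 1.03 for sense reads. That sum is mostly reads of the opposite strand, so it does not measure Snhg14 alone. The Snhg16 call was lost without wt/wt replicate 1 or 2 and with library size alone (edgeR adjusted p = 0.0969). It was also lost with sex by transcripts and the replicate block together (edgeR adjusted p = 0.0703). The Snhg14 call was lost without any 1 of the wt/wt libraries, without flox/flox replicate 2 or 3, and with the length trend removed (edgeR adjusted p = 0.340). Library size alone (edgeR adjusted p = 0.119) and sex by transcripts as a term (edgeR adjusted p = 0.0670) removed the Snhg14 call too. With library size alone the list had 1 higher, 1 lower and a median of -0.16.

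Of 36 protein-coding snoRNA hosts, most of them genes of ribosomal proteins and translation factors, 28 fell and 1 rose, with a median log2 fold change of -0.89. Rpl32 averaged 28.3 CPM in flox/flox and 94.5 CPM in wt/wt (3.34-fold lower, edgeR adjusted p = 0.000918), Rpl23 27.6 CPM in flox/flox and 89.1 CPM in wt/wt (3.22-fold lower, edgeR adjusted p = 0.000599) and Rpl21 25.5 CPM in flox/flox and 65.2 CPM in wt/wt (2.56-fold lower, edgeR adjusted p = 0.000799). The wt/flox means of Rpl32, Rpl23 and Rpl21 were 37.7, 40.2 and 35.0 CPM. Ribosomal protein genes have many near-identical pseudogene copies, so their counts are uncertain. Reads that aligned to several places made up 3.92% to 4.32% in flox/flox, 4.89% to 4.98% in wt/flox and 8.97% to 10.9% in wt/wt. With the length trend removed 22 of the 36 still fell. Whether the members and this list differ was not tested.

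**Figure D4:**
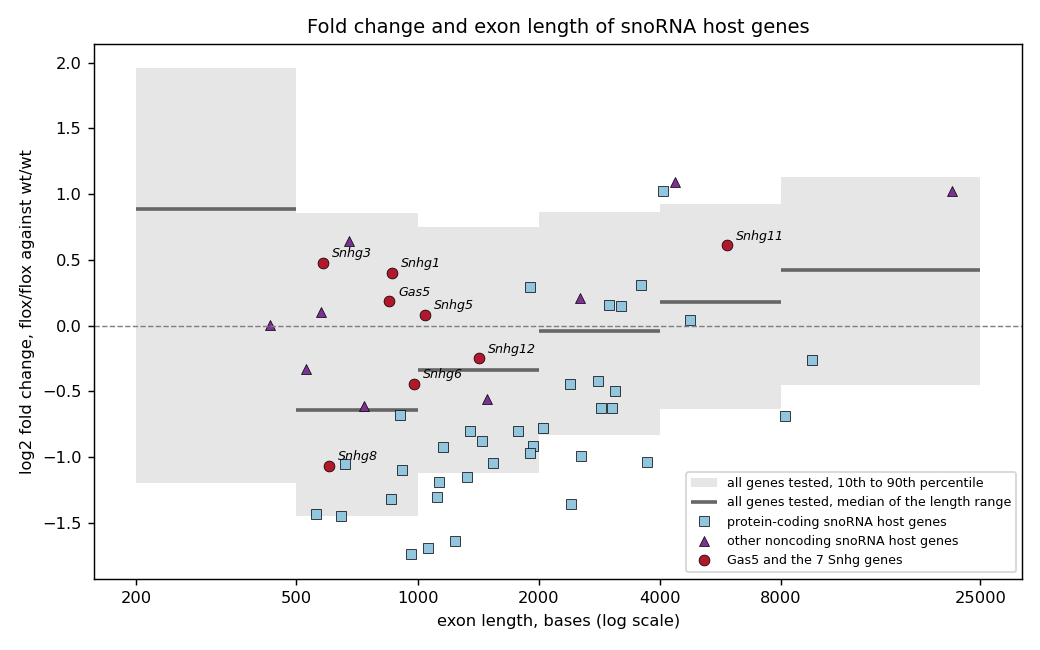
Log2 fold change in flox/flox against wt/wt (vertical axis) against exon length in bases (log scale) for Gas5 and the 7 Snhg genes (red circles), the 9 of 12 other noncoding hosts with an annotated length (purple triangles) and protein-coding hosts (blue squares). Grey blocks span the 10th to 90th percentile of all genes tested in 6 length ranges, of which the first and last are open-ended, and bars mark their medians. Snhg8 lies below the median of its length range (-0.64) and Gas5, Snhg1 and Snhg3 above it, and 28 of the 36 protein-coding hosts fell.

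Messenger RNAs with a terminal oligopyrimidine tract that code for no ribosomal protein, but for translation factors and similar proteins, fell as well. Of 18, 13 were lower and 1 higher in flox/flox against wt/wt (median log2 -0.65). Snora and Snord hosts include translation factors and particle proteins. The gene lists can therefore share genes, and their counts are not independent of one another. Naca averaged 53.4 CPM in flox/flox and 118.9 CPM in wt/wt (2.23-fold lower, edgeR adjusted p = 0.00199), and Btf3, its partner in the nascent polypeptide complex, 32.5 CPM in flox/flox and 62.8 CPM in wt/wt (1.93-fold lower, edgeR adjusted p = 0.00260). Eif3f, of an initiation factor, was 1.91-fold lower (edgeR adjusted p = 0.00245). With the length trend removed 8 of the 18 fell. Among 15 regulators of these messages, mostly of the mTORC1 pathway, 5 rose and 3 fell, beside 15.1% and 14.7% of all genes. Tia1 and Tial1, RNA-binding proteins that repress such messages under stress, rose 2.19-fold and 1.49-fold (edgeR adjusted p = 0.00358 and 0.00422), and Akt1s1, an mTORC1 inhibitor, was 1.71-fold lower (edgeR adjusted p = 0.00378). Tia1 and Tial1 were also higher in wt/flox against wt/wt, 2.11-fold and 1.44-fold (edgeR adjusted p = 0.0167 and 0.0207). Akt1s1 was 1.37-fold lower there and not called (edgeR adjusted p = 0.0630). Between flox/flox and wt/flox, Tia1 and Tial1 were each 1.04-fold higher and Akt1s1 was 1.25-fold lower in flox/flox, without a call. The median of the 15 was 0.31, and -0.02 with library size alone, where Tial1 was no longer called (edgeR adjusted p = 0.0659).

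The proteins that make up and assemble snoRNA particles fell in part. Of 20 tested, 10 were lower and none higher (median log2 -0.52), beside 14.7% lower and 15.1% higher over all genes. Fbl, the methyltransferase of box C/D particles, averaged 6.93 CPM in flox/flox and 15.4 CPM in wt/wt (2.22-fold lower, edgeR adjusted p = 0.00147). Nhp2 and Nop10, core proteins of H/ACA particles, were 2.60-fold and 2.19-fold lower (edgeR adjusted p = 0.00411 and 0.00418). With the length trend removed 5 of the 20 fell.

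Nonsense-mediated decay factors were split, with 6 of 23 higher and 6 lower (median log2 0.06), beside 15.1% higher and 14.7% lower over all genes. Xrn1, the 5′ to 3′ exonuclease that degrades decapped RNA, averaged 56.1 CPM in flox/flox and 32.4 CPM in wt/wt (1.73-fold higher, edgeR adjusted p = 0.00245). Its wt/flox mean was 50.1 CPM. The exon junction proteins Rbm8a and Magoh were 2.15-fold and 2.18-fold lower (edgeR adjusted p = 0.00252 and 0.00256). Upf1, the central helicase of the pathway, had 64.4, 62.9 and 49.7 CPM in flox/flox, 60.2 and 61.8 CPM in wt/flox, and 73.9, 88.1 and 76.1 CPM in wt/wt. It fell in flox/flox against wt/wt (log2 -0.43, SE 0.13, edgeR adjusted p = 0.0420), a call that was lost under 13 of 23 alternatives, among them RLE size factors (edgeR adjusted p = 0.0521) and each sex term. With library size alone 3 factors were higher and 9 lower, and with the length trend removed 4 were higher and 5 lower. That removal left Rbm8a at a log2 fold change of -1.09, Magoh at -0.51 (edgeR adjusted p = 0.0461, and 0.0662 with sex by transcripts as a term as well) and Xrn1 at 0.36 (edgeR adjusted p = 0.0462), beside -1.10, -1.13 and 0.79 without it.

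Of 18 genes of the glucocorticoid receptor and its targets, 1 rose and none fell (median log2 0.20, and -0.13 with library size alone). Over all genes 15.1% rose and 14.7% fell. Dusp1, a phosphatase of MAP kinases, averaged 106.9 CPM in flox/flox and 72.4 CPM in wt/wt (edgeR adjusted p = 0.0284). Its call was lost without any 1 of the 3 flox/flox libraries and, among other settings, with library size alone (edgeR adjusted p = 0.345). Nr3c1, the receptor itself, averaged 162.5 CPM in flox/flox and 125 CPM in wt/wt and was not called (edgeR adjusted p = 0.0855), nor was G6pc, which encodes glucose-6-phosphatase (edgeR adjusted p = 0.145). In flox/flox against wt/flox no gene of any of these 7 lists was called. Calls were also made in wt/flox against wt/wt, which differ in batch mark too. There 11 of the 36 protein-coding hosts were lower and 1 higher, and 5 of the 18 tract messages were lower. Of the regulators 2 rose, of the decay factors 4 rose and 2 fell, and 1 particle protein fell. No gene of the noncoding host or glucocorticoid lists was called.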

How the data were processed

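Strand-specific libraries from ribosome-depleted RNA were made, per the labels' protocols. The authors deposited raw read counts per gene symbol, sense and antisense apart, per the file headers. Build GRCm38 (mm10) and DESeq2 are named in the submitters' processing notes. For the aligner, counter and annotation, the sources used here give no name. Reads aligned to several places were tallied apart in the deposited counts, so genes with close copies are under-counted. Rows naming no gene were left out of library sizes. Of 25229 symbols, 24366 were matched to GENCODE M21 for exon length.

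Sense counts were tested with edgeR 4.0.16 (R 4.3.3), quasi-likelihood, TMM, filterByExpr (14728 genes), genotype alone, all 8 libraries in 1 fit, two-sided, Benjamini-Hochberg at 0.05. CPM uses TMM-scaled library sizes, and intervals are at 95%. The design text counts 2 flox/flox mice, but 3 samples have that genotype and all 3 entered. The members, the gene lists and the markers were chosen with earlier results of these data known. Named genes were the 8 members, snoRNAs inside them with at least 10 reads in a library, neighbouring genes on the opposite strand, Adar, Upf1, up to 3 genes of each list with the smallest p in flox/flox against wt/wt, and the genes of most like pattern (mean CPM of at least 5, log2 CPM with a prior count of 2). Rcc1, the neuron, endothelial and Kupffer markers and the sparser snoRNAs were named outside that rule, after their values were seen. Alternatives used RLE size factors, library size alone, other filters, DESeq2 1.42.0, limma-voom (limma 3.58.1), sex terms, a replicate block, fits of only the groups compared, each library omitted in turn, antisense reads added, and removal of an exon length trend (lowess span 0.3). Scripts were tested on simulated data.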

Additional observations from a re-analysis of the deposited data

How the results depend on the processing

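Of 23 alternatives, 21 kept the Snhg8 call as the 1 member called in flox/flox against wt/wt, with leave-one-out values of 1 to 1 members and log2 fold changes of -1.12 to -0.97. With the length trend removed 0 members were called, and also 0 when sex by transcripts, added after seeing the data, was a term too (Snhg8 log2 -0.41, edgeR adjusted p = 0.107). For the uncalled members no alternative gave a call in that comparison, though the sign changed in 6 of 23 for Snhg3, 5 for Snhg5, 3 for Gas5, 2 for Snhg12 and 1 for Snhg6. Genes called numbered 4400, of which 2231 were higher, against 4841 with library size alone, of which 744 were higher. They numbered 2915 without the libraries of contradicted sex, 1786 with sex by transcripts and the replicate block together, and 2195 to 4722 with each library left out (2195 without wt/wt replicate 2, and 2807 when wt/wt replicate 1 was omitted).

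In flox/flox against wt/flox, DESeq2 called 73 genes against 0, and leaving out each library gave 0 to 0. In wt/flox against wt/wt, 2 members were called with library size alone and 0 with labelled sex, the replicate block, only the groups compared, the libraries of contradicted sex left out, the length trend removed, or either added setting, and 0 to 1 with each library left out. Genes called there numbered 1837 (969 higher), against 3498 with library size alone (281 higher), 3295 with DESeq2, 555 with the length trend removed, 592 with sex by transcripts as well, 0 with sex by transcripts and the replicate block, and 0 to 2525 with each library left out (0 without either wt/flox library, 38 without wt/wt replicate 2).

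Same-numbered flox/flox and wt/wt libraries had correlations of their deviations of 0.29, 0.02 and 0.45, so the numbers were not taken to pair the mice. With the replicate block alone, Snhg8 stayed the 1 member called in flox/flox against wt/wt, with 4794 genes called, and 0 members and 1439 genes were called in wt/flox against wt/wt. Where a group is left with 1 library, it is assumed to vary like the others. The causes of these changes were not tested. The snoRNAs and Mcmdc2 had few or no reads per library, which limits what can be said of them, and the reason was not tested.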
